A study of Mus musculus with 5 samples.

Results

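The genes described here are the transcription factors STAT3 and STAT5, their SOCS feedback inhibitors and direct STAT5 targets in haematopoietic stem and progenitor cells of the mouse. The list was given by name and held 10 genes of the 24399 in the count table: Socs3, Socs1, Socs2, Cish, Pim1, Pim2, Ccnd2, Stat3, Stat5a and Stat5b. All 10 passed the filter on low counts. Each gene was read from the RefSeq transcript with the most counts, such as NM_007707 for Socs3. The cells were LSK cells, the lineage-negative fraction of bone marrow positive for Sca1 and cKit, which holds stem cells and multipotent progenitors, taken at 12 months of age from mice of strain C57BL/6. The comparison set 3 libraries with KO in their title against 2 with WT, and it asks how a germ-line knockout of Aid alters the transcriptome of these cells. For the libraries with KO in their title, the genotype is entered as Aid+/-, although the series text also names Aid(-/-) animals, and the titles carry the word AIDTET, which the labels do not explain; these libraries are called KO-labelled. The WT libraries are given as wild type on the same strain, and no sex or treatment is given for either group. Nothing in the labels assigns the libraries to separate mice, and the spread behind every p-value may therefore be technical.

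Tet2 stood at 26.8, 43.3 and 32.2 CPM in KO-labelled libraries, against 51.5 and 52.5 CPM in WT libraries, and did not pass (adjusted p = 0.11 by edgeR's quasi-likelihood test). It passed with DESeq2 (adjusted p = 0.0347), with limma (adjusted p = 0.0339), without the count filter (adjusted p = 0.0474) and without KO library 2 (adjusted p = 0.0101), and its adjusted p reached 0.575 without WT library 1. Total counts with 1 transcript per gene were 36060320 to 39691066 in the KO-labelled and 29964556 to 38674416 in the WT libraries, and the floor of 3 counts equalled 0.076 to 0.1 CPM. CPM are counts relative to a fixed total of reads per library, after TMM scaling of library sizes. All 11 LSK markers, Kit and Ly6a (the gene of Sca1) among them, were tested and 0 changed by edgeR (4 at an unadjusted p under 0.05, a level that 13.8% of all tested genes reached, 0 by DESeq2 and 0 by limma). KO library 1 correlated less with the other KO-labelled libraries (0.9646 and 0.965 across genes on log2 CPM) than those did with each other (0.9802). KO libraries 2 and 3 correlated more with WT library 2 (0.9733 and 0.9708) than with KO library 1. The WT libraries correlated with each other at 0.9694.

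Cytokines such as thrombopoietin, interleukin-3 and interleukin-6 bind receptors that carry JAK kinases, and the JAKs phosphorylate STAT factors, which then enter the nucleus as dimers. STAT5 is known in blood progenitors for switching on survival and cell cycle genes, among them the PIM kinases and cyclin D2, and STAT3 for responses to receptors that use gp130. Both also switch on the SOCS genes, whose proteins bind the receptor or the JAK and dampen the signal, so SOCS transcripts are both targets and brakes of the pathway.

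STAT dimers bind the palindrome TTCNNNGAA, and the promoters of Socs3 and Cish are shown because they were the ones among the listed genes with that motif. RefSeq promoter windows, from 250 bases before to 50 after a transcription start on build GRCm38.p6, were found for 8 of the 10 genes; Socs2 and Ccnd2 had no entry. The motif reads the same on both strands, so its matches on either strand coincide, and it occurred in 2 of the 11 windows of these genes and in 8.3% of all 32851 windows. The bases before the start that this table uses for Socs3, chr11:117969367-117969616 on the minus strand, lie inside the full span that RefSeq gives the gene, which reaches farther upstream. They held 1 match from position -154 to -146 relative to the start, and the Cish stretch, chr9:107296659-107296678 on the plus strand, held 2 matches from position 1 to 9 and from 12 to 20. Capitals mark the motif.
Socs3: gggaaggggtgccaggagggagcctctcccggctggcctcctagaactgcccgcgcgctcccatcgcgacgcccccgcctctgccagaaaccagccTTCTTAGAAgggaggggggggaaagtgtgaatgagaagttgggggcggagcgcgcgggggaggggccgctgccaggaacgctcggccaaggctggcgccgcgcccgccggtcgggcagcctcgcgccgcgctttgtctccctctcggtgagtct
Cish: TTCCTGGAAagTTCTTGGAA
The windows of Socs1, Pim1, Pim2, Stat3, Stat5a and Stat5b did not hold these letters. A match is a description of the sequence and was not tested for binding.

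Of the 10 genes, Socs3 and Pim2 fell and Ccnd2 rose in the KO-labelled libraries, while the STAT factors and the other SOCS genes did not pass the test. Socs3 was 4.13-fold lower, Pim2 was 2.02-fold lower and Ccnd2 was 1.52-fold higher. These 3 of 10 compare with 1.97% of all 14565 tested genes that passed edgeR's quasi-likelihood test at an adjusted p under 0.05 (0.79% higher and 1.18% lower). The genes were chosen with earlier results of these data known, so the comparison describes them and is not a test of the list. The groups did not overlap for 5 of the 10 genes, 1 higher and 4 lower, against 32.8% of all tested genes (16.5% higher and 16.3% lower). The median log2 fold change was -0.21 over the 10 genes and 0.001 over all tested genes. In these bulk libraries, fewer cells of a type and less RNA per cell cannot be told apart.

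**Figure D1:**
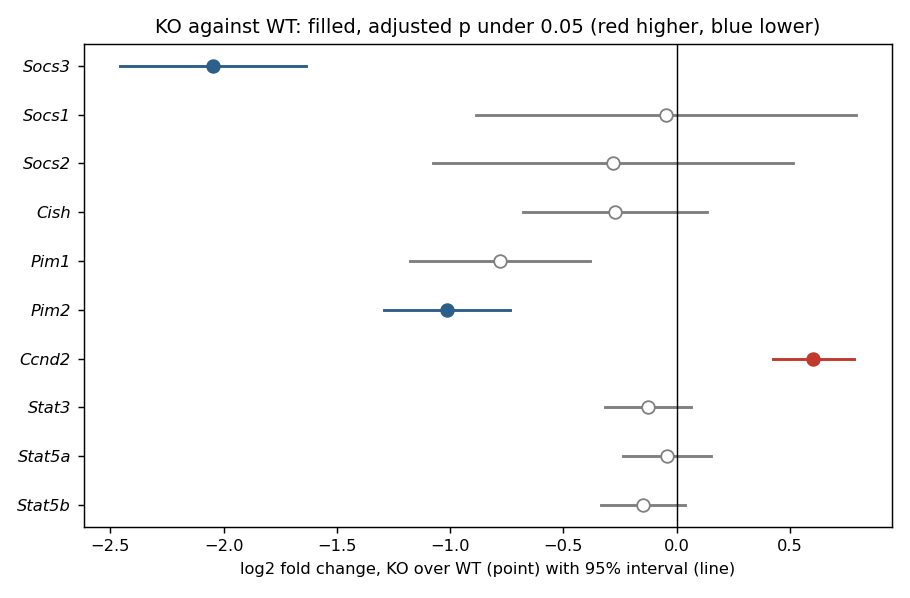
Log2 fold change of each of the 10 genes, KO-labelled over WT, from edgeR; points are estimates, lines are 95% intervals, and filled points passed at an adjusted p under 0.05. Socs3 lies lowest at -2.05, Pim2 lies at -1.01, Ccnd2 lies above 0 at 0.60, and the open points did not pass.

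None of the STAT factors among the 10 genes passed edgeR's test (0 of 3, with 0 at an unadjusted p under 0.05 and 0 by DESeq2 or limma). Stat3, the factor downstream of gp130 receptors, was at 278.7, 313 and 312 CPM in KO-labelled libraries, against 311 and 346.5 CPM in WT libraries. Its groups overlapped, with a log2 fold change of -0.13 ± 0.09 (SE) and an adjusted p of 0.584 by edgeR. Stat5a was at 197.7, 175 and 184 CPM in KO-labelled libraries, against 181 and 202 CPM in WT libraries. Stat5b was at 208, 237 and 219.6 CPM in KO-labelled libraries, against 249.9 and 241 CPM in WT libraries. The Stat5a groups overlapped while the Stat5b groups did not, and neither gene passed in edgeR (log2 fold change -0.04 with a 95% interval of -0.24 to 0.15 for Stat5a, and -0.15 with an interval of -0.33 to 0.04 for Stat5b). Stat5a and Stat5b encode near-identical proteins, and how reads shared between them were counted is not given in the sources used here, so the split between the 2 genes is uncertain. In gene order Stat5b, Stat5a and Stat3 are direct neighbours.

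Among all 11 JAK kinases and STAT factors, 1 rose and 0 fell (median log2 fold change -0.01), where 1.97% of all tested genes passed. Jak1, the most abundant kinase of the list by CPM, averaged 596 ± 14.5 CPM in KO-labelled libraries and 596 ± 11.02 CPM in WT libraries (SD, n = 3 and n = 2), and the sign of its log2 fold change of 0.0014 turned under other scalings. Jak3, the kinase bound to the common gamma chain and named after its values were seen, had 99.2, 136 and 133 CPM in KO-labelled libraries, against 165 and 202 CPM in WT libraries. It missed the threshold in the fit of all 5 libraries (log2 fold change -0.58 ± 0.14, adjusted p = 0.0564 by edgeR). Over the alternatives its adjusted p ran from 0.00189 with DESeq2 to 0.489 without WT library 2.

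Socs3, whose protein binds gp130 and the receptor of granulocyte colony-stimulating factor and blocks their JAKs, was the member of the SOCS family that fell. It stood at 9.16, 7.47 and 7.17 CPM in KO-labelled libraries, against 27.9 and 37.5 CPM in WT libraries. All KO-labelled values lay below both WT values, and the widest fold within a group was 1.28 in KO-labelled and 1.34 in WT libraries. The log2 fold change was -2.05 ± 0.19 (95% interval -2.46 to -1.64) with an adjusted p of 0.000192 by edgeR, the sixth smallest p of the 14565 genes. Among the 15 alternatives, 1 was this same fit judged at an adjusted p under 0.10, which Socs3 could not fail. It passed in all 15 alternatives, with a log2 fold change of -2.24 without WT library 1 and -1.82 without WT library 2, where the adjusted p was highest at 0.0439.

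The other SOCS genes among the 10 did not pass the test. Cish, the classic STAT5 target that feeds back on the receptors of erythropoietin and interleukin-3, was at 24.7, 23.1 and 19.2 CPM in KO-labelled libraries, against 21.6 and 32.2 CPM in WT libraries. Socs1, a direct inhibitor of JAK kinases, was at 4.40, 3.38 and 2.38 CPM in KO-labelled libraries, against 3.002 and 3.99 CPM in WT libraries. Socs2, known for limiting growth hormone signalling, was at 7.39, 6.12 and 2.81 CPM in KO-labelled libraries, against 6.04 and 7.16 CPM in WT libraries. The groups of all 3 genes overlapped, and KO library 3 was the lowest of the KO-labelled libraries for each. Their log2 fold changes by edgeR were -0.27 (95% interval -0.68 to 0.13) for Cish, -0.05 (interval -0.89 to 0.79) for Socs1 and -0.28 (interval -1.07 to 0.51) for Socs2, with adjusted p of 0.576, 0.978 and 0.804. These intervals are wide for Socs1 and Socs2, which had 90 to 159 and 111 to 280 counts per library. Socs1 turned positive without KO library 3 (0.16) and without WT library 2 (0.17), Socs2 without KO library 3 (0.04) and Cish without WT library 2 (0.05).

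The SOCS family has 8 genes, and all were tested: 1 fell, 0 rose and 7 did not pass, with a median log2 fold change of -0.16. Over all tested genes, 1.97% passed. Socs7 and Socs5 were the most abundant by CPM. Socs7 averaged 79.6 ± 5.89 CPM in KO-labelled libraries and 72.8 ± 4.13 CPM in WT libraries (SD, n = 3 and n = 2), and Socs5 averaged 68.9 ± 3.62 CPM in KO-labelled libraries and 59.9 ± 2.54 CPM in WT libraries. Neither passed by edgeR (adjusted p = 0.644 and 0.419), although the Socs5 groups did not overlap. SOCS proteins recruit a ubiquitin ligase through elongins, cullins and RING proteins, and 0 of the 6 genes of that machinery passed by edgeR, with 0 at an unadjusted p under 0.05, 0 by DESeq2 and 0 by limma. Cul5, the cullin of that ligase, averaged 63.4 ± 6.58 CPM in KO-labelled libraries and 62.9 ± 2.84 CPM in WT libraries, with a sign that turned under total-count scaling, and its partner Rbx1 averaged 57.3 ± 6.48 CPM in KO-labelled libraries and 48.4 ± 4.03 CPM in WT libraries. Of 14 other inhibitors of cytokine signalling, such as phosphatases and PIAS proteins, 0 passed by edgeR, with 1 at an unadjusted p under 0.05, 1 by DESeq2 and 0 by limma. The 2 most abundant were the phosphatase Ptprc (CD45), with 351 ± 14.0 CPM in KO-labelled libraries and 423 ± 24.8 CPM in WT libraries (adjusted p = 0.131 by edgeR), and Ptpn6 (SHP-1), with 283 ± 11.7 CPM in KO-labelled libraries and 265 ± 14.6 CPM in WT libraries (adjusted p = 0.687).

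**Figure D2:**
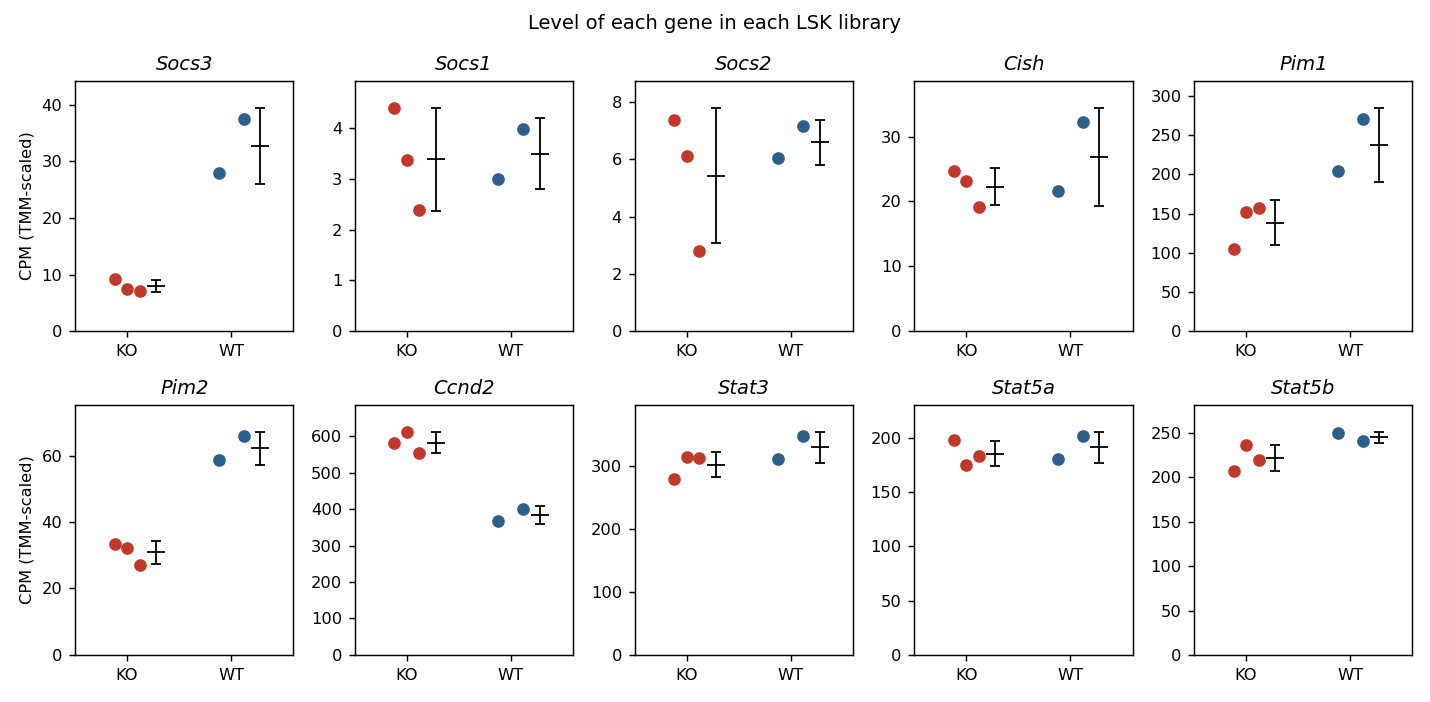
TMM-scaled CPM of each gene in every LSK library (points; KO-labelled red, WT blue), with the mean and SD of each group as black bars, n = 3 and n = 2; each panel starts at 0 and has its own scale. Socs3, Pim1, Pim2 and Stat5b are lower in each KO-labelled library than in each WT library, Ccnd2 is higher in each, and the other 5 genes overlap.

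The PIM kinases and D cyclins moved in different directions. Pim2, a serine kinase that promotes survival and translation, stood at 33.4, 32.3 and 27.0 CPM in KO-labelled libraries, against 58.8 and 65.8 CPM in WT libraries. The groups did not overlap, and the log2 fold change was -1.01 ± 0.13 (95% interval -1.29 to -0.74, adjusted p = 0.0019 by edgeR). Pim1, its close relative, stood at 105, 152 and 158 CPM in KO-labelled libraries, against 204 and 271 CPM in WT libraries. The Pim1 groups did not overlap either, but KO library 1 lay 1.498-fold below KO library 3 and the gene missed the threshold (log2 fold change -0.78 ± 0.18, adjusted p = 0.0665 by edgeR). Without KO library 1 it passed with a smaller change (-0.62, adjusted p = 0.005), without the other libraries left out in turn it did not (adjusted p 0.0614 to 0.438), and it passed by DESeq2 and by limma. Pim3 averaged 19.96 ± 1.49 CPM in KO-labelled libraries and 19.2 ± 4.45 CPM in WT libraries, and its groups overlapped.

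Ccnd2, the cyclin that drives entry into the cell cycle with CDK4 and CDK6, was the listed gene that rose. It stood at 580.4, 613 and 554 CPM in KO-labelled libraries, against 366 and 401 CPM in WT libraries. The spread within a group was small, at most 1.11-fold, and the log2 fold change was 0.60 ± 0.08 (95% interval 0.42 to 0.78, adjusted p = 0.00305 by edgeR). Ccnd1, its paralogue, rose as well, with 159, 140.4 and 140.2 CPM in KO-labelled libraries, against 71.9 and 94.1 CPM in WT libraries (1.76-fold, adjusted p = 0.00417 by edgeR). The size of that rise depended on the WT library kept. The log2 fold change of Ccnd1 was 0.82 with all libraries, 0.64 without WT library 1 and 1.03 without WT library 2. Ccnd3 stood at 145 ± 5.93 CPM in KO-labelled libraries and 144 ± 16.2 CPM in WT libraries, with overlapping groups. Of the 6 PIM kinases and D cyclins, 2 rose and 1 fell, beside 1.97% of all tested genes that passed.

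The calls on Pim2 and Ccnd2 needed both WT libraries. Without WT library 1 the adjusted p was 0.103 for Pim2 and 0.206 for Ccnd2, and without WT library 2 it was 0.115 for Pim2 and 0.0799 for Ccnd2, while the log2 fold changes stayed between -1.09 and -0.92 for Pim2 and between 0.54 and 0.67 for Ccnd2 over these and the other fits with a library left out. With either WT library left out, 1 of the 10 genes passed, Socs3, and without KO library 1 there were 4. With 1 WT library left, that library is assumed to vary like the others.

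**Figure D3:**
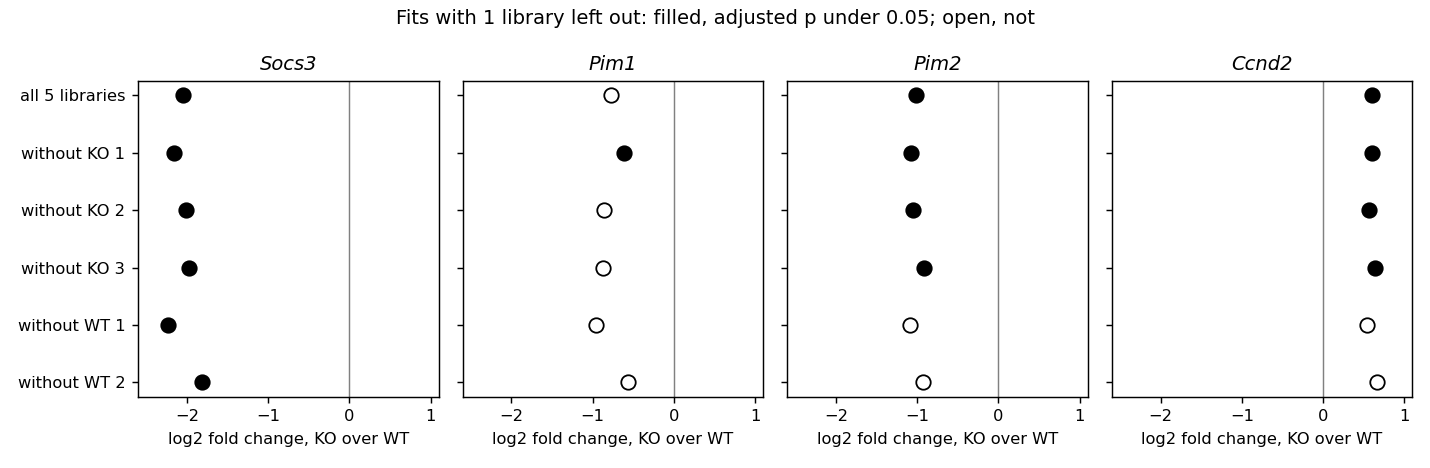
Log2 fold change, KO-labelled over WT, of Socs3, Pim1, Pim2 and Ccnd2 in the fit of all 5 libraries and in fits with 1 library left out; filled points passed at an adjusted p under 0.05. Socs3 is filled in every fit, from -2.24 to -1.82; Pim2 and Ccnd2 are open without either WT library, and Pim1 is filled only without KO library 1.

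Levels per kilobase of transcript can be set side by side between genes, but they depend on the length used. Lengths here are those of GENCODE transcripts matched to the kept rows. With these lengths Ccnd2 stood highest in the KO-labelled libraries and Pim1 in the WT libraries. For Stat3, 2 rows had the same counts, with lengths of 4516 and 2927 bases, and the longer was used. The shorter would raise Stat3, so which gene stands highest depends on that choice. In CPM per kilobase, Ccnd2 was at 91.7, 96.9 and 87.6 in KO-labelled libraries, against 57.9 and 63.4 in WT libraries. Pim1 was at 39.0, 56.5 and 58.4 CPM per kilobase in KO-labelled libraries, against 75.7 and 100.5 in WT libraries. Ccnd2 thus lay above Pim1 in every KO-labelled library and below it in both WT libraries. Socs3 was at 3.59, 2.93 and 2.81 CPM per kilobase in KO-labelled libraries, against 10.95 and 14.7 in WT libraries. Cish was at 8.66, 8.10 and 6.73 CPM per kilobase in KO-labelled libraries, against 7.57 and 11.3 in WT libraries. Socs3 lay below Cish in every KO-labelled library and above it in both WT libraries. In descending order of the mean, the KO-labelled libraries had Ccnd2 (92.0), Stat3 (66.7), Pim1 (51.3), Stat5a (47.7), Stat5b (42.5), Pim2 (27.7), Cish (7.83), Socs3 (3.11), Socs2 (2.45) and Socs1 (1.16 CPM per kilobase). Within that order the values of Pim1, Stat5a and Stat5b overlapped between libraries, as did those of Socs3 and Socs2 and those of Socs2 and Socs1. The WT libraries had Pim1 (88.1), Stat3 (72.8), Ccnd2 (60.6), Pim2 (56.0), Stat5a (49.2), Stat5b (47.1), Socs3 (12.8), Cish (9.44), Socs2 (2.97) and Socs1 (1.20 CPM per kilobase). Here the values of Pim1 and Stat3, of Ccnd2 and Pim2 and of Stat5a and Stat5b overlapped, as did those of Socs3 and Cish. The length used for Socs1, 2908 bases, is longer than the span that RefSeq gives the gene, chr16:10783808-10785536. Its level per kilobase is therefore understated, and its place relative to Socs2 is uncertain in both groups.

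The falls in the STAT5 target list were Socs3 and Pim2, described above, and the rises were Ccnd2, Ccnd1 and Irf4. Of 23 tested genes of the STAT5 target list, which includes 7 of the genes above, 3 rose and 2 fell, and the median log2 fold change was -0.07. That is 21.7% of the list, against 1.97% of all tested genes. Irf4, a transcription factor of lymphoid and dendritic cells, stood at 7.34, 8.65 and 13.7 CPM in KO-labelled libraries, against 3.002 and 3.25 CPM in WT libraries (3.16-fold higher, adjusted p = 0.0174 by edgeR). Its groups did not overlap, and it missed the threshold when KO library 3 (adjusted p = 0.107), WT library 1 (adjusted p = 0.328) or WT library 2 (adjusted p = 0.25) was left out. The survival genes of the list did not pass. Bcl2l1 (BCL-XL) stood at 42.8 ± 3.19 CPM in KO-labelled libraries and 34.9 ± 1.24 CPM in WT libraries, Mcl1 at 266 ± 15.8 CPM in KO-labelled libraries and 265 ± 4.59 CPM in WT libraries, and Bcl2 at 180.1 ± 7.39 CPM in KO-labelled libraries and 215 ± 5.64 CPM in WT libraries, with adjusted p of 0.307, 0.991 and 0.173 by edgeR. Without WT library 1 the list held 0 rises and 1 fall, and without WT library 2 it held 1 of each.

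Of 24 tested STAT3 targets, 4 fell and 1 rose (20.8%, against 1.97% of all tested genes), and the median log2 fold change was -0.14. Socs3 led the falls, and Ccnd1, shared with the STAT5 list, was the gene that rose. Haptoglobin, Hp, an acute-phase protein of the granulocyte lineage and the liver, fell to 27.7, 23.4 and 32.2 CPM in KO-labelled libraries, against 54.5 and 51.1 CPM in WT libraries (1.90-fold lower, adjusted p = 0.00541 by edgeR). The interleukin-1 receptor Il1r1 fell to 61.1, 84.2 and 62.4 CPM in KO-labelled libraries, against 105 and 108 CPM in WT libraries (1.54-fold lower, adjusted p = 0.0292 by edgeR). Il6st, which encodes gp130 itself, stood at 90.8, 109 and 98.1 CPM in KO-labelled libraries, against 152 and 136 CPM in WT libraries (1.45-fold lower, adjusted p = 0.0169 by edgeR). For all 3 genes the KO-labelled values lay below both WT values. Without KO library 3 the list held 1 rise and 2 falls, without WT library 1 it held 1 fall, and without KO library 1 it held 2 rises and 7 falls.

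Upstream of the STATs, several receptor chains fell. Of 33 haematopoietic cytokine receptors, 5 fell and 1 rose (18.2%, against 1.97% of all tested genes), with a median log2 fold change of -0.15. Of the 33, 27 had a log2 fold change under 0, against 49.9% of all tested genes. Csf2rb, the beta chain shared by the receptors of interleukin-3, interleukin-5 and granulocyte-macrophage colony-stimulating factor, was at 45.7, 46.2 and 56.3 CPM in KO-labelled libraries, against 106 and 102 CPM in WT libraries (2.10-fold lower, adjusted p = 0.000449 by edgeR). Csf2rb2, the mouse chain specific to interleukin-3, was at 9.69, 10.3 and 12.2 CPM in KO-labelled libraries, against 27.7 and 22.5 CPM in WT libraries (2.34-fold lower, adjusted p = 0.00434 by edgeR). These chains are similar in sequence and may share reads, so their split is uncertain. Ghr, the growth hormone receptor (1.77-fold, with 14.1, 10.6 and 12.3 CPM in KO-labelled libraries, against 20.04 and 23.4 CPM in WT libraries), Csf3r, the receptor of granulocyte colony-stimulating factor (1.32-fold), and Il6st fell too, with adjusted p of 0.0393 for Ghr and 0.0417 for Csf3r by edgeR. Il21r, the interleukin-21 receptor, which signals through STAT3, rose 1.504-fold, with 75.2, 67.8 and 70.5 CPM in KO-labelled libraries, against 46.0 and 48.7 CPM in WT libraries (adjusted p = 0.012 by edgeR). With either WT library left out, 0 receptors passed by edgeR, and without KO library 3 there were 2 falls and 0 rises.

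The cytokines that act on these receptors had low counts in the LSK libraries. Of 22 listed, 13 stayed under 1 CPM in every library, 9 had 0 counts in every library, which allows up to 0.1 CPM in the shallowest library by the floor of 3 counts for counting error, and 10 had enough counts to be tested. By edgeR 0 passed, with 1 at an unadjusted p under 0.05, 0 by DESeq2 and 0 by limma. Il15 and Osm, the most abundant, stood at 16.5 ± 2.89 CPM in KO-labelled libraries and 15.3 ± 0.284 CPM in WT libraries for Il15, and at 10.3 ± 1.24 CPM in KO-labelled libraries and 10.2 ± 2.33 CPM in WT libraries for Osm. Over all lists together, 115 distinct pathway genes were tested, of which 5 rose and 9 fell (12.2%, against 1.97% of all tested genes). The lists were chosen with earlier results of these data known, so these shares are a description.

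**Figure D4:**
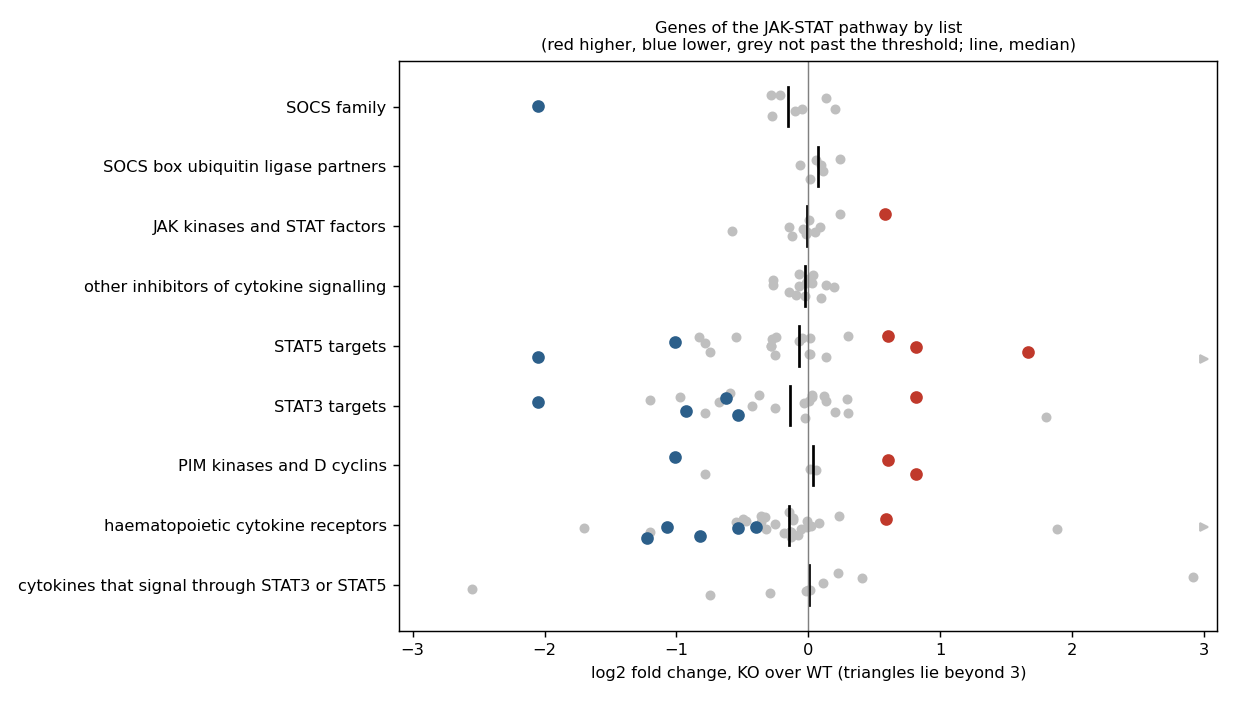
Log2 fold change, KO-labelled over WT, of every tested gene of each JAK-STAT list (points; red higher and blue lower at an adjusted p under 0.05, grey not), with the median of the list as a black line. Most genes lie near 0; the falls are in the SOCS, target, PIM and receptor lists, and the list medians run from -0.16 to 0.08.

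Several marker lists of other cell types also differed between the groups, in different directions. Beside the counts of genes below, 1.97% of all tested genes passed by edgeR (0.79% higher and 1.18% lower). The neutrophil and monocyte list summed to 3329 to 4052 CPM in KO-labelled libraries, against 4703 to 5048 CPM in WT libraries, with 4 of 12 genes lower and 1 higher and none at 0. The erythroid list summed to 349 to 439 CPM in KO-labelled libraries, against 252 to 254 CPM in WT libraries, with 4 of 10 genes higher and none at 0. Of these 10 genes, 2 had a log2 fold change under 0. The megakaryocyte list summed to 346 to 554 CPM in KO-labelled libraries, against 614 to 706 CPM in WT libraries, with 2 of 6 tested genes lower and Gp6 at 0 in every library. Another 2 of its tested genes had a log2 fold change above 0, with groups that did not overlap. The stromal and endothelial list summed to 217 to 265 CPM in KO-labelled libraries, against 339 to 357 CPM in WT libraries, with 2 of 8 genes lower. In that list 2 genes had a log2 fold change above 0, and 2 genes stayed under 1 CPM in every library. With WT library 1 left out, 0 genes of these 4 lists passed, with WT library 2 left out 1 did, an erythroid one, and without KO library 1 the neutrophil and monocyte list had 8 genes lower. For none of these 4 lists did the summed levels of the groups overlap. The same held for the T and NK cell list and the macrophage and dendritic cell list given below. It also held for a list of lineage markers, at 88.0 to 132 CPM in KO-labelled libraries and 162 to 167 CPM in WT libraries. Among single genes, the groups did not overlap for 32.8% of all tested genes. The part of these lists in the values of Socs3, Pim2, Ccnd2 and the receptors was not tested. Summed levels of the B cell list overlapped, at 50.9 to 57.6 CPM in KO-labelled libraries and 44.2 to 54.3 CPM in WT libraries. The T and NK cell list summed to 124 to 140.1 CPM in KO-labelled libraries, against 152 to 154 CPM in WT libraries, and the macrophage and dendritic cell list to 61.7 to 67.6 CPM in KO-labelled libraries, against 54.8 to 58.7 CPM in WT libraries.

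Genes with a profile like that of Socs3 were sought over the 5 libraries. Among 10828 other tested genes with a mean of at least 5 CPM, the nearest by root mean square difference of centred log2 CPM were Cldn5 (0.306), Vldlr (0.337), Muc1 (0.347), Aatk (0.361) and Snx24 (0.399). Cldn5, Muc1 and Aatk were under 5 CPM in every KO-labelled library and reached that mean only through their WT values. Vldlr, a lipoprotein receptor, stood at 78.7, 91.7 and 92.9 CPM in KO-labelled libraries, against 252 and 258 CPM in WT libraries. Cldn5, a tight junction protein, stood at 2.35, 1.84 and 1.42 CPM in KO-labelled libraries, against 10.9 and 10.1 CPM in WT libraries. Muc1, a membrane mucin, stood at 2.44, 1.87 and 2.79 CPM in KO-labelled libraries, against 13.2 and 15.0 CPM in WT libraries. Each of these genes, like Socs3, had its KO-labelled values below both WT values. That order follows from choosing genes by their nearness to Socs3 in the same libraries, so it is no separate result. With 5 libraries this is a description, and 0 of the 5 genes belong to the 10 listed genes.

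**Figure D5:**
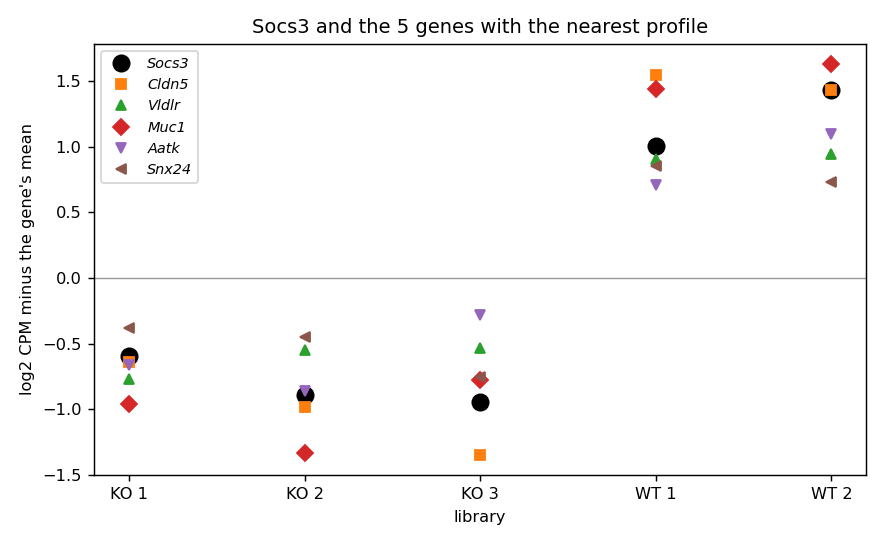
Log2 CPM minus the gene's own mean over the 5 libraries, for Socs3 (black) and the 5 genes nearest to it. All 6 genes lie below 0 in the 3 KO-labelled libraries and above 0 in both WT libraries; Socs3 runs from -0.95 in KO library 3 to 1.43 in WT library 2.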

How the data were processed

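Poly-A RNA of sorted LSK cells was sequenced from a stranded kit, per the labels' protocols. Raw counts for 33862 RefSeq transcripts were deposited by the authors for the 5 libraries. Build mm9 and the tools featureCounts, Subread 1.4.5-p1 and STAR are named in the submitters' processing notes. Whether strand was used and how shared reads were treated is not given in the sources used here. A RefSeq gene table (GRCm38) gave symbols to 33485 rows and GENCODE to 188; 189 rows kept their accession and held 0.362% to 0.459% of counts. The row with the most counts was kept per gene. Rows of a listed gene held at least 98.7% of the kept row's counts. Transcript lengths came from GENCODE M21, and promoter sequences from RefSeq (GRCm38.p6), a later build than mm9, so no coordinates were joined to the files.

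Library sizes were scaled by TMM, and genes passing filterByExpr entered the test of edgeR 4.0.16 under R 4.3.3 (robust quasi-likelihood, two-sided, Benjamini-Hochberg over all genes, threshold 0.05), after a check on simulated data. The common biological coefficient of variation was 18.9%. Log2 fold changes are KO-labelled over WT and carry their SE or a 95% interval. Alternatives were other scalings, filters and thresholds, DESeq2 1.42.0, limma 3.58.1 with sample weights, summed rows, leaving out each library, and the replicate number as a term. Floors cover counting error only. The genes and lists were chosen with earlier results of these data known. Named were the listed genes, Tet2, up to 6 called genes of each list or its 2 most abundant where fewer than 2 passed, and the 5 genes nearest to Socs3; Jak3, Bcl2, Bcl2l1, Mcl1, Pim3, Ccnd3, Bcl3, Il2ra and 9330179D12Rik were chosen after their values were seen. Some genes that this rule names are not reported here.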

Additional observations from a re-analysis of the deposited data

How the results depend on the processing

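Of the 10 listed genes, 3 or 4 passed under every alternative that kept both WT libraries, Pim1 being the fourth, and 1 to 4 with a library left out. The 14 changed pathway genes became 1 to 20 with a library left out, 1 without WT library 1, 2 without WT library 2 and 8 without KO library 3. Over all genes 287 changed, against 455 with no count filter, 521 with DESeq2, 567 with limma, 454 at an adjusted p under 0.10 and 6 to 675 with a library left out, with 18 once WT library 2 and 6 once WT library 1 was dropped. The causes of these differences were not tested. In the fit with a replicate block, where KO library 3 adds nothing to the contrast, 160 genes changed, 142 of them among the 287, and Pim1 passed (adjusted p = 0.00159). The libraries share only a number: same-numbered deviations correlated at 0.043 and 0.017. Under the block the log2 fold changes of Socs1 (0.15), Socs2 (0.031), Jak1 (-0.017) and Osm (-0.066) turned sign. Genes near 0 also turned: Jak1 with RLE size factors (-4.88e-05), total counts (-0.012), upper quartile factors (-0.0039), a mean of at least 1 CPM (-0.0044) and DESeq2 (-9.29e-05), and Cul5 with total counts (-0.0021) and limma (-0.040). With a library left out, Socs1 ran from -0.28 to 0.17, Socs2 from -0.57 to 0.037, Cish from -0.53 to 0.048, Stat5a from -0.11 to 0.037, Cul5 from -0.077 to 0.063, Jak1 from -0.016 to 0.026, Il15 from -0.037 to 0.21 and Osm from -0.19 to 0.27. None of these passed in any fit. Socs1 and Socs2 had the fewest counts of the 10 genes.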

Other observations

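Il2ra, the interleukin-2 receptor alpha chain and a STAT5 target of lymphoid cells, had 16, 25 and 10 counts in KO-labelled libraries, against 0 and 0 counts in WT libraries, and did not pass (adjusted p = 0.211 by edgeR). Bcl3, a STAT3 target and NF-kB cofactor, stood at 16.2, 18.1 and 12.6 CPM in KO-labelled libraries, against 22.8 and 31.0 CPM in WT libraries (log2 fold change -0.78 ± 0.19, adjusted p = 0.0638 by edgeR). Over the alternatives its adjusted p ran from 0.01 with no count filter to 0.514 without WT library 2.

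The long non-coding gene 9330179D12Rik, which overlaps Ccnd2 in the RefSeq table, had 0, 3 and 3 counts in KO-labelled libraries, against 32 and 29 counts in WT libraries (adjusted p = 0.211 by edgeR). Its groups did not overlap and lay in the opposite order to those of Ccnd2, which had 20964, 23959 and 21891 counts in KO-labelled libraries, against 10988 and 15683 counts in WT libraries. Whether strand was used in counting is not given, and the counts of the overlapping gene are a small fraction of those of Ccnd2.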
